A study of Homo sapiens with 24 samples.

Results

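The 4 ID genes (ID1, ID2, ID3 and ID4) and 6 genes of the SMAD pathway (SMAD2, SMAD3, SMAD6, SMAD7, SMAD9 and BAMBI) were followed through every condition of an RNA-seq study of ovarian cancer cells. They were taken by name, and all 10 were found among the 28277 genes of each of the 2 count tables. Counts were obtained from PEO1 and PEO4, 2 established lines of high-grade serous ovarian carcinoma that share 1 donor, PEO1 being the drug-sensitive line and PEO4 the resistant one. In the first table, untreated PEO1, which is deficient in BRCA2 and sensitive to cisplatin, was set beside untreated PEO4 (called PEO4 A here), whose own BRCA2 reversion puts the gene back in frame. In the second table, PEO1BRCA+, in which a spontaneous reversion had restored BRCA2, was set beside PEO4 cultured with it (PEO4 B). The 2 lines of the first table thus also differed in BRCA2 function, and the 2 lines of the second were both restored. Both of those lines were left untreated or received 5 µM pyridostatin (PDS), a small molecule that binds G-quadruplexes (G4s), for 2 h or 6 h. Each of the 8 conditions had 3 libraries, labelled as biological replicates, and nothing states that they came from separate days, so the tests measure the spread between these libraries. Each line is a single established culture. Sodium pyruvate was added to the medium of PEO1 and PEO4 A but not of the other cultures, so the 2 PEO4 cultures differed in medium as well as in table.

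ID proteins are helix-loop-helix factors without a DNA-binding region. They bind E proteins such as those made from TCF3, TCF4 and TCF12 and keep them off DNA, and they are known for holding cells in an undifferentiated, dividing state. Their genes are classic direct targets of bone morphogenetic protein (BMP) signals. In that pathway, type I and type II receptor kinases phosphorylate the receptor-regulated SMADs (SMAD1, SMAD5 and SMAD9 for BMP, SMAD2 and SMAD3 for TGF-beta and activin), which then enter the nucleus with SMAD4. SMAD6 and SMAD7 are inhibitory SMADs, and BAMBI is a receptor-like membrane protein that lacks the kinase; all 3 genes are themselves induced by the pathway and restrain it.

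Levels are given in CPM, the counts of a gene relative to the library total after scaling by the trimmed mean of M-values (TMM). A gene was called when edgeR's quasi-likelihood test gave a Benjamini-Hochberg adjusted p under 0.05, over all genes of the table, with an absolute log2 fold change over 1. Errors of log2 fold changes are standard errors (SE). Library totals ran from 18699929 to 22375644 counts in the untreated libraries of the second table and from 33260167 to 43713947 in the PDS libraries, and the share of counts on ribosomal RNA genes ran from 0.217% to 0.474% and from 0.0163% to 0.0369%. Depth and ribosomal share therefore changed together with treatment, and their effects on the levels cannot be told apart from that of PDS. In the first table totals ran from 32528913 to 63882077. In bulk RNA, fewer cells that express a gene and less of its RNA per cell cannot be told apart. All 8 carcinoma markers (PAX8, WT1, MUC16, MSLN, EPCAM, KRT7, KRT8 and KRT18) were detected in every condition, with summed levels from 4848 to 14103 CPM. The leukocyte genes CD3E and PTPRC and the endothelial gene CDH5 averaged at most 0.23 CPM in any condition. The 4 endothelial markers summed to 0.183 to 2.76 CPM and the 4 leukocyte markers to 23.0 to 78.6 CPM per library, the latter nearly all CD68. In PEO4 B the 5 fibroblast markers summed to 19.99 to 36.8 CPM untreated, 5.90 to 7.72 CPM after 2 h and 2.74 to 3.94 CPM after 6 h. Nearly all of it was COL1A1 and COL3A1, and DCN, another of the 5, was at 0.08 CPM or less. The part of these markers in the results was not tested.

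The promoters of the 4 ID genes are shown because PDS binds G4s and these genes fell together in PEO4 B. Each window runs from 250 bases before the RefSeq transcript start to 50 bases after it, on the strand of the gene, in GRCh38. Capitals mark runs that can be read as 4 or more runs of GGG parted by 1 to 7 bases, on either strand. Runs of C in capitals mean that the G runs lie on the opposite strand.
ID1, chr20:31605039-31605338, plus strand: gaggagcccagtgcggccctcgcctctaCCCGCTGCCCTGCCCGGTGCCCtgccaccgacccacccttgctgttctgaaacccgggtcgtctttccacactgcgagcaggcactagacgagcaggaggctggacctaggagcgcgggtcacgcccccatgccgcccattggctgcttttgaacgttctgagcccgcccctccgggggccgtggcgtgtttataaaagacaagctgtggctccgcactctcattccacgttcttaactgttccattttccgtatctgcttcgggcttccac
ID2, chr2:8681806-8682105, plus strand: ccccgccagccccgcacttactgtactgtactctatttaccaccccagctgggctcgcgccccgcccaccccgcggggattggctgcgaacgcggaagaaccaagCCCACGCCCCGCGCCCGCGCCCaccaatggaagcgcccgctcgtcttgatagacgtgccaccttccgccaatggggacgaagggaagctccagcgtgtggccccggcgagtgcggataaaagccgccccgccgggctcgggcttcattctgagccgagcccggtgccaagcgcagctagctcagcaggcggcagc
ID3, chr1:23559452-23559751, minus strand: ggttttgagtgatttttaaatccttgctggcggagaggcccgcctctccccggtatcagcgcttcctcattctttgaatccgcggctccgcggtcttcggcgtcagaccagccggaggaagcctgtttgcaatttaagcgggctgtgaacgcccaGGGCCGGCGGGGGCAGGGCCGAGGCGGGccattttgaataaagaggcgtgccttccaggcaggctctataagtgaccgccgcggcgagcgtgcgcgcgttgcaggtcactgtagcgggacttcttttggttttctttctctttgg
ID4, chr6:19837120-19837419, plus strand: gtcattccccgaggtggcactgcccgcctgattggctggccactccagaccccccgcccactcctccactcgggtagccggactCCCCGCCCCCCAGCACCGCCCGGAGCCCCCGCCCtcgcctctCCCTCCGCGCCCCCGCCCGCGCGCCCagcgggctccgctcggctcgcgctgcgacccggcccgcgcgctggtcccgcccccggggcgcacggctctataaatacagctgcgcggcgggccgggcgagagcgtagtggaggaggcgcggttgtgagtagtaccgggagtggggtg

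The G-run pattern was found in all 4 windows, at 222 to 201 bases before the start in ID1, 145 to 124 in ID2, 95 to 68 in ID3, and 166 to 133 and 124 to 99 in ID4. It lay on the strand of the gene in ID3 and on the opposite strand in the other 3 genes. Over all 35116 RefSeq promoter windows of this length, 25.0% held it. The ID windows were 59.7% (ID3) to 76.3% (ID4) G and C, against a median of 58.7% over all windows. Neither GGCGCC, the GC-rich element described for BMP-responsive SMADs and the same on both strands, nor CAGACA, the core of the CAGA box, was present in any of the 4 ID windows. Of all windows, 19.2% held GGCGCC and 16.9% held CAGACA on either strand. No match says only that these letters are not in this window. For comparison, and looked up with their values known, the window of BAMBI held GGCGCC 3 times and no G-run pattern, and that of SMAD6 held the G-run pattern once. Of the 10 members, 9 held the G-run pattern in at least 1 of their RefSeq windows, all but BAMBI. It was in 2 of 5 windows of SMAD3, 1 of 3 of SMAD7 and 1 of 2 of SMAD2. Whether the pattern forms a G4 in these cells, or has a part in the changes, was not tested. The 25.0% above is a share of windows, so this count of genes cannot be set against it.

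ID1 lies at chr20:31605289-31606510 on the plus strand, with 2 exons in its canonical GENCODE transcript. Its level was 163, 137 and 177 CPM in untreated PEO1BRCA+, 98.8, 88.2 and 80.3 CPM after 2 h of PDS and 52.7, 58.4 and 43.7 CPM after 6 h. In PEO4 B it was 473, 499 and 418 CPM untreated, 223, 293 and 243 CPM after 2 h and 181, 187 and 177 CPM after 6 h. In both lines the libraries of the 3 times did not overlap, and every library at 6 h was below every library at 2 h. ID1 was 160.1, 181 and 189 CPM in PEO1 and 74.1, 163 and 129 CPM in PEO4 A, where the spread was wide and 1 library of PEO4 A lay above the lowest of PEO1.

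ID2, at chr2:8682056-8684461 on the plus strand, has 3 exons. It was 51.0, 41.6 and 50.4 CPM in untreated PEO1BRCA+, 37.6, 36.1 and 32.8 CPM after 2 h and 15.5, 15.1 and 13.0 CPM after 6 h. In PEO4 B the values were 240.3, 257 and 260.0 CPM untreated, 142, 166 and 138 CPM after 2 h and 61.4, 59.4 and 57.6 CPM after 6 h. The order of times was the same in both lines, without overlap, and the 6 h level in PEO4 B lay above the untreated level in PEO1BRCA+. In the first table ID2 was 195, 198 and 199 CPM in PEO1 and 134, 144 and 141 CPM in PEO4 A, so PEO1 was here the line with the higher level.

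ID3 lies on the minus strand at chr1:23557926-23559501. In PEO1BRCA+ it was 91.8, 75.5 and 111 CPM untreated, 117, 105 and 100.2 CPM after 2 h and 118, 127 and 113 CPM after 6 h. In PEO4 B it was 158, 186 and 167 CPM untreated, 111, 129.6 and 103 CPM after 2 h and 61.8, 62.4 and 56.0 CPM after 6 h. Untreated PEO4 B stood above every library of PEO1BRCA+, and PEO4 B at 6 h stood below every one of them. In PEO1BRCA+ ID3 was called at neither time, and its libraries overlapped between untreated cells and 2 h. Its 6 h libraries there all lay above the untreated ones, with a change under the fold threshold (0.36 ± 0.12, adjusted p = 0.0152 by edgeR). PEO1 had 73.9, 94.5 and 91.3 CPM and PEO4 A 21.0, 30.3 and 25.3 CPM.

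ID4 lies at chr6:19837370-19842197 on the plus strand and overlaps the opposite-strand long noncoding RNA LNC-LBCS, whose reads cannot be told apart from those of ID4 unless strand was used in counting, which is not stated. Its level was 714, 792 and 796 CPM in PEO4 A and 727, 799 and 728 CPM in untreated PEO4 B, against 77.4, 59.2 and 57.5 CPM in PEO1 and 30.1, 21.9 and 36.4 CPM in untreated PEO1BRCA+. Both PEO4 cultures were thus far above both PEO1 cultures. With PDS it was 390.2, 444 and 417 CPM at 2 h and 269, 283 and 304 CPM at 6 h in PEO4 B. In PEO1BRCA+ it was 41.8, 44.4 and 40.0 CPM at 2 h, above the untreated libraries, and 25.5, 24.4 and 20.8 CPM at 6 h, overlapping them.

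**Figure D1:**
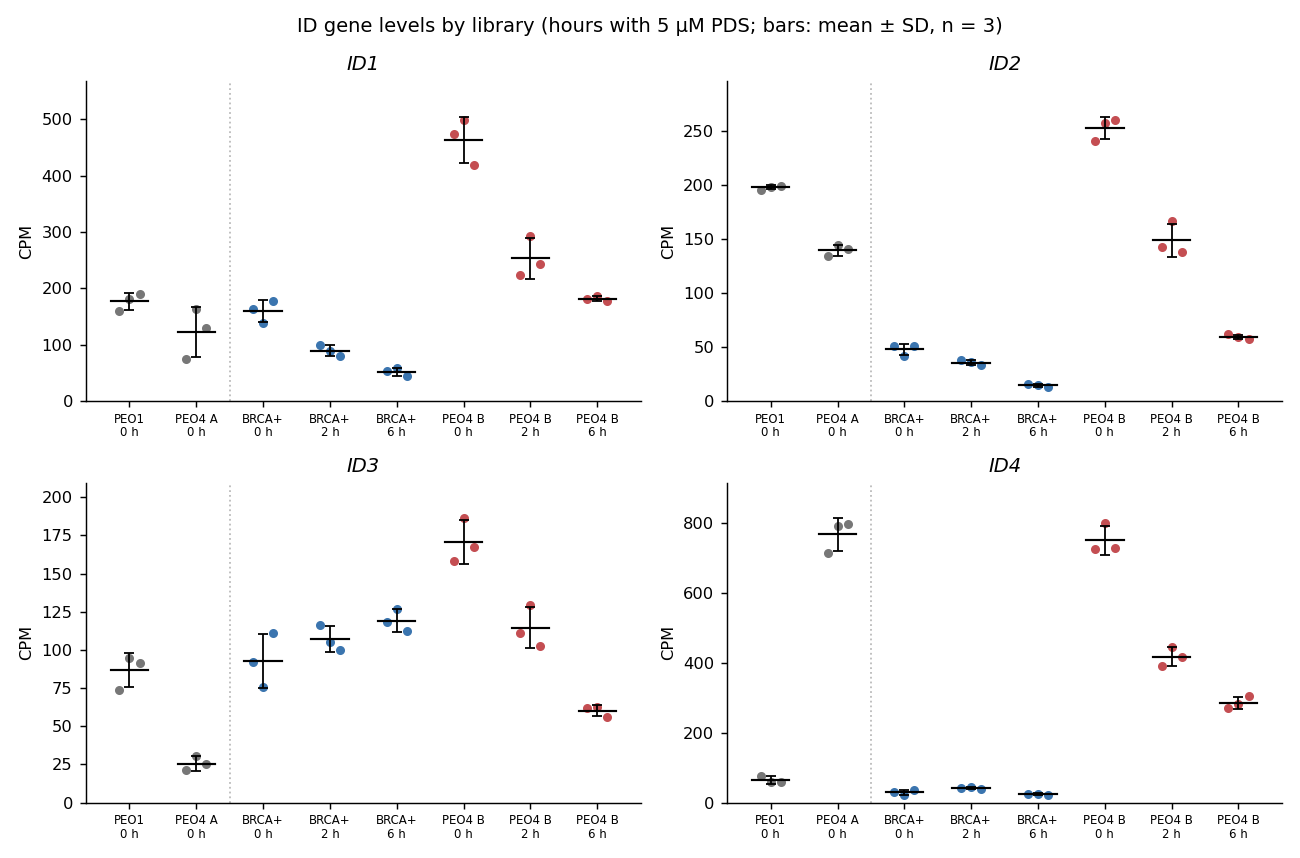
CPM of ID1, ID2, ID3 and ID4 (linear axes from 0) in each library of the 8 conditions, with the mean and SD of 3 libraries; grey, first table, blue, PEO1BRCA+ (BRCA+ on the axis), red, PEO4 B. ID1, ID2, ID3 and ID4 step down with time in PEO4 B, whereas ID3 does not fall in PEO1BRCA+.

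To compare the ID genes with each other, levels were divided by the length of the canonical transcript. Summed over the 4 genes, they came to 304 ± 44.3 CPM per kilobase (SD, n = 3) in untreated PEO1BRCA+, 242 ± 20.2 after 2 h and 195 ± 16.3 after 6 h. In PEO4 B the sum was 1039 ± 61.2 untreated, 600.2 ± 66.7 after 2 h and 368 ± 6.64 after 6 h. ID1 was the most abundant per kilobase in untreated PEO1BRCA+, with 53.4% ± 1.12 of the sum, and ID3 followed with 32.0% ± 1.60. After 6 h of PDS the order was turned, with 64.4% ± 1.83 for ID3 and 26.8% ± 1.68 for ID1, and the 2 h libraries lay between, at 46.7% ± 0.593 for ID3 and 37.5% ± 0.790 for ID1. In PEO4 B the make-up shifted less: ID1 held 45.3% ± 2.14 untreated and 50.3% ± 0.490 at 6 h, ID3 17.3% ± 0.829 and 17.2% ± 0.794, ID4 18.7% ± 0.306 and 20.05% ± 1.42, and ID2 18.7% ± 1.30 and 12.5% ± 0.404. In untreated PEO4 B the levels of ID2, ID3 and ID4 per kilobase overlapped between libraries. ID4 held 43.8% ± 4.03 in PEO4 A and 3.83% ± 0.892 in PEO1. Libraries of the 2 tables were scaled separately, so these shares within a library compare more directly across tables than CPM do.

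**Figure D2:**
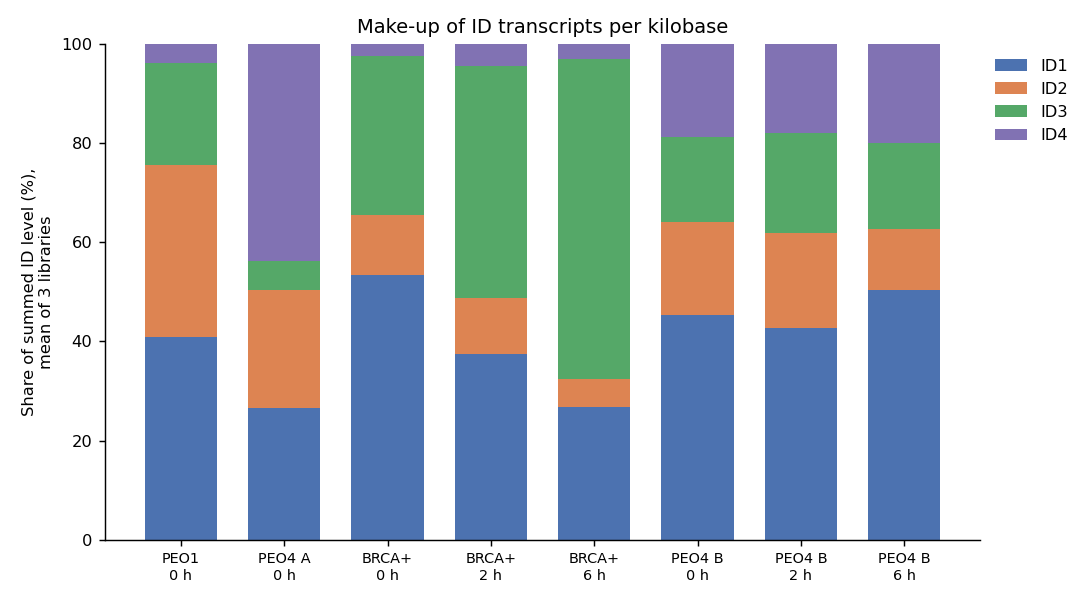
Share of each ID gene in the summed ID level per kilobase (percent, mean of 3 libraries, stacked to 100). The share of ID3 grows by 6 h in PEO1BRCA+, from 32.0% to 64.4%, and ID4 averages 18.7% in untreated PEO4 B and 43.8% in PEO4 A, against 4.51% or less in the PEO1 conditions.

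Among the receptor-regulated SMADs, SMAD2 passed the fold threshold in none of the comparisons made here. This TGF-beta mediator, on chr18:47808957-47930872 (minus strand), was 107, 104 and 106 CPM in untreated PEO1BRCA+ and 145, 139.7 and 147 CPM after 6 h, and 143, 142 and 133 CPM and 132, 129 and 127 CPM in PEO4 B at the same times. It lay between 169.8 and 184 CPM in PEO1 and PEO4 A, which overlapped.

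SMAD3, the other TGF-beta mediator, lies on chr15:67065602-67195169 (plus strand). It was 241, 259.8 and 258 CPM in untreated PEO1BRCA+, 215, 221 and 232 CPM at 2 h and 222, 212 and 236 CPM at 6 h. In PEO4 B it was 95.4, 118 and 89.7 CPM untreated, 221, 213 and 215 CPM at 2 h and 156, 153 and 147 CPM at 6 h. The untreated difference between the lines was thus closed at 2 h, when the libraries of both lines covered nearly the same range, and reopened in part at 6 h. The 2 untreated lines of the first table, with 141 to 144 CPM in PEO1 and 95.8 to 142 CPM in PEO4 A, overlapped.

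SMAD9, a BMP mediator on chr13:36844831-36920854 (minus strand), was the lowest member. Its level was 5.12, 5.39 and 5.43 CPM in PEO1 and 1.69, 2.61 and 2.27 CPM in PEO4 A. It was 1.47, 2.56 and 3.18 CPM in untreated PEO4 B and 1.22, 1.40 and 0.868 CPM after 6 h, on 29 to 69 counts per library, so its changes carry the most counting error among the members. In PEO1BRCA+ it lay between 2.01 and 3.19 CPM over all 3 times.

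SMAD6, which blocks mainly BMP signals, lies on chr15:66702236-66782849 (plus strand). It was 39.9, 39.5 and 46.4 CPM in untreated PEO1BRCA+, 13.8, 15.98 and 15.5 CPM at 2 h and 13.0, 12.9 and 11.8 CPM at 6 h. In PEO4 B it was 280.2, 230.4 and 324 CPM untreated, 37.2, 38.0 and 39.6 CPM at 2 h and 38.0, 35.4 and 34.2 CPM at 6 h. In both lines most of the difference from untreated cells was present at 2 h. PEO1 (44.6, 60.8 and 64.0 CPM) and PEO4 A (41.6, 57.4 and 50.5 CPM) overlapped, so the high untreated level of PEO4 B was not seen in PEO4 A.

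SMAD7, which blocks both branches, lies on chr18:48919853-48950965 (minus strand). It was 81.8, 78.4 and 74.5 CPM in untreated PEO4 B, 44.1, 46.0 and 46.7 CPM at 2 h and 32.9, 33.9 and 30.4 CPM at 6 h. In PEO1BRCA+ it was 46.6, 42.8 and 50.1 CPM untreated, 56.4, 56.1 and 57.5 CPM at 2 h and 49.9, 51.7 and 48.4 CPM at 6 h. The 2 lines again moved apart from their untreated order, with PEO4 B highest before PDS and lowest at 6 h.

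BAMBI lies on chr10:28677521-28682932 (plus strand). It was 208, 69.5 and 196 CPM in untreated PEO4 B, 19.9, 19.4 and 19.1 CPM at 2 h and 14.3, 16.2 and 15.96 CPM at 6 h. The second untreated library stood apart from the other two, and all 3 were still above every PDS library. In PEO1BRCA+ it was 45.1, 36.9 and 47.8 CPM untreated, 39.4, 38.7 and 37.7 CPM at 2 h and 37.0, 36.3 and 37.8 CPM at 6 h, and the times overlapped. PEO1 and PEO4 A were low, at 5.39 to 8.15 and 8.51 to 10.5 CPM.

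**Figure D3:**
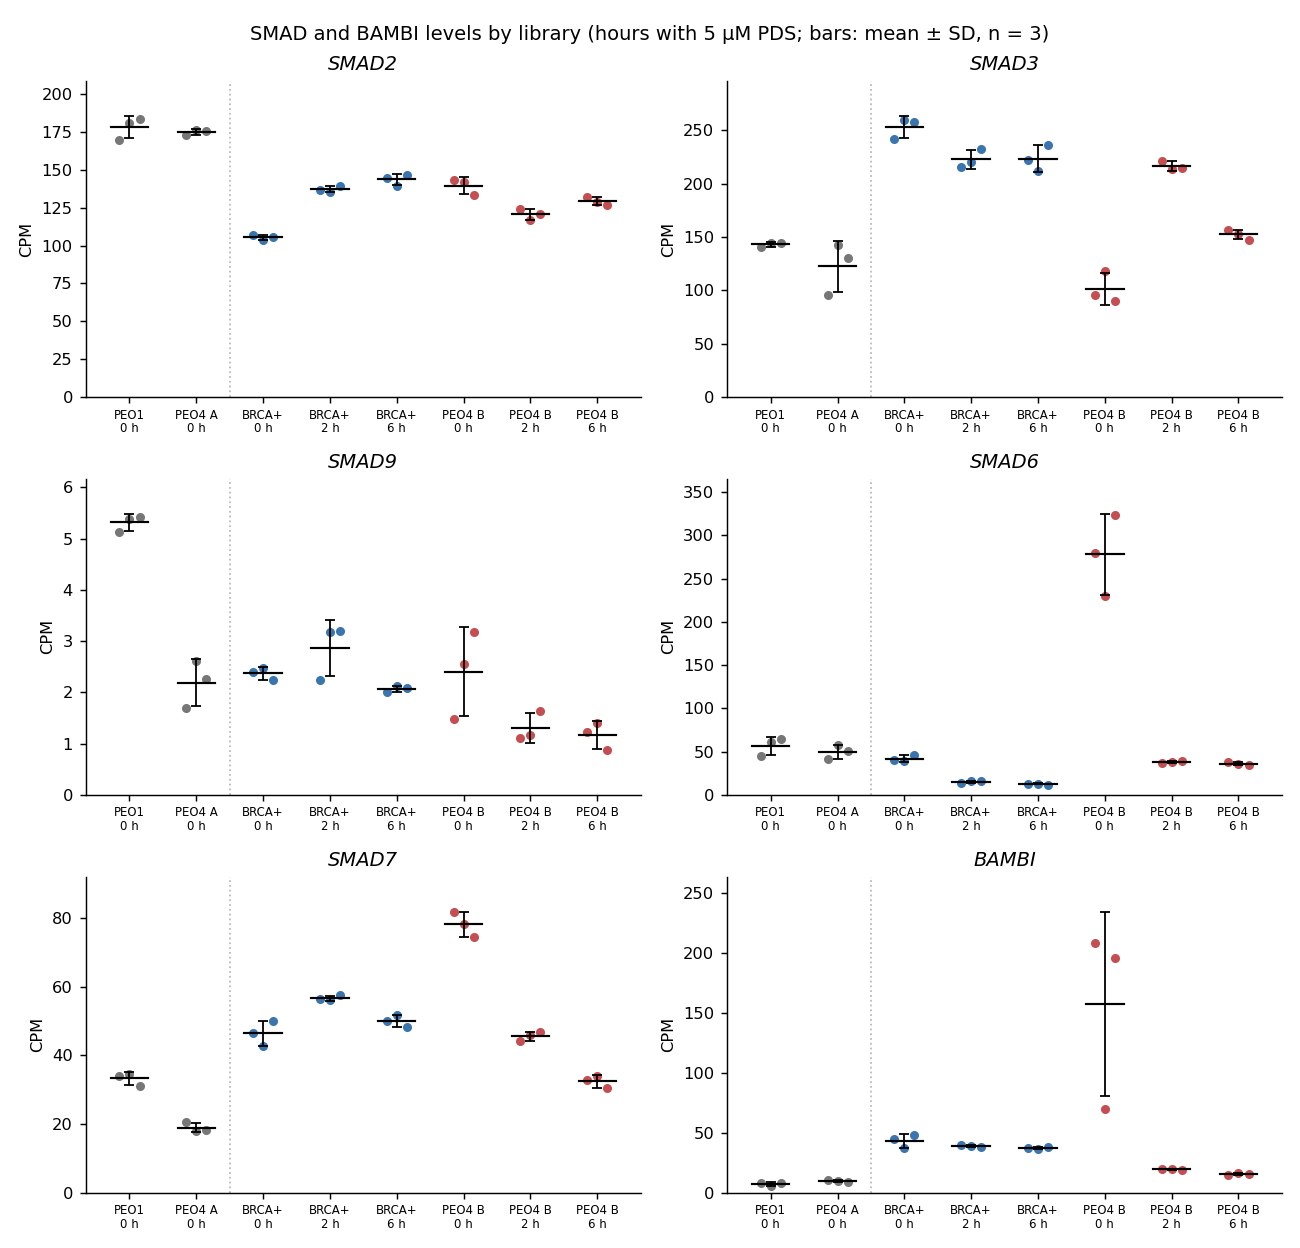
CPM of SMAD2, SMAD3, SMAD9, SMAD6, SMAD7 and BAMBI (linear axes from 0) in each library of the 8 conditions, with the mean and SD of 3 libraries; colours as in the plot of ID genes. SMAD6 and BAMBI stand high in untreated PEO4 B only and are low by 2 h, and the wide error bar of BAMBI comes from the library at 69.5 CPM.

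Per kilobase of canonical transcript, ID1 was the most abundant member in PEO1, untreated PEO1BRCA+ and untreated PEO4 B (179.7 ± 15.3, 162 ± 20.5 and 471 ± 42.1 CPM per kilobase, SD, n = 3). In PEO4 A it was ID4, at 198 ± 11.9. SMAD9 was the lowest in all 8 conditions, at 0.956 CPM per kilobase or less. SMAD2 ranked eighth or ninth in the untreated conditions, but its canonical transcript is 34626 bases long, and a shorter isoform would give a higher value.

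The first question was whether resistant PEO4 differed from PEO1 before treatment. In the first table, 3 of the 10 members were called, where 12.6% of all 15882 genes tested were called higher and 13.1% lower in PEO4 A. ID4 was 11.9-fold higher (log2 fold change 3.57 ± 0.12, adjusted p = 2.54e-10 by edgeR's quasi-likelihood test). ID3 was 3.40-fold lower (-1.76 ± 0.14, adjusted p = 1.08e-06) and SMAD9 2.46-fold lower (-1.30 ± 0.20, adjusted p = 0.000112). ID2 (-0.50 ± 0.07), SMAD7 (-0.81 ± 0.10) and BAMBI (0.45 ± 0.17) had an adjusted p under 0.05 with a change under the fold threshold. ID1 (-0.54 ± 0.29) passed on neither, nor did SMAD2, SMAD3 and SMAD6, which lay between -0.22 and -0.03. The fibroblast markers moved with this contrast: they summed to 32.5 to 36.7 CPM in PEO1 and 5.82 to 10.9 CPM in PEO4 A, and both of the 2 tested, COL1A1 and PDGFRB, were called lower, while neither of the 2 tested endothelial markers was called. Of 2 tested leukocyte markers 1 was called higher (CD79A), and of 8 carcinoma markers PAX8 was called higher and KRT7 lower. Their part in it was not tested.

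In the second table, 6 of 10 members were called between untreated PEO4 B and PEO1BRCA+. Of all 17020 genes tested, 12.2% were called higher and 12.6% lower. ID4 was 25.5-fold higher (4.67 ± 0.14, adjusted p = 2.42e-14 by edgeR), SMAD6 6.63-fold (2.73 ± 0.10), ID2 5.30-fold (2.40 ± 0.08), BAMBI 3.66-fold (1.87 ± 0.29) and ID1 2.91-fold (1.54 ± 0.12). SMAD3 was 2.51-fold lower (-1.33 ± 0.07, adjusted p = 2.78e-14). Without the second untreated library of PEO4 B, the value of BAMBI was 2.23 ± 0.07. ID3 (0.88 ± 0.12) missed the fold threshold and passed it without the third of the untreated libraries of PEO1BRCA+ (1.03). The fibroblast markers summed to 5.09 to 7.11 CPM in PEO1BRCA+ and 19.99 to 36.8 CPM in PEO4 B, and 2 of the 3 tested, COL1A1 and COL3A1, were called higher, as were 2 of the 3 tested endothelial markers, PECAM1 and VWF, which summed with the rest of their list to at most 2.76 CPM. Of 2 tested leukocyte markers 1 was called higher (CD79A), and of 8 carcinoma markers MSLN was called higher and KRT7 lower. Their part in it was not tested. ID4 was the member called higher in both tables. For ID2, ID3 and SMAD7 the libraries of the lines did not overlap in either table, and the estimates had opposite signs, below 0 in the first and above 0 in the second (for SMAD7 -0.81 ± 0.10 and 0.75 ± 0.06). ID1, SMAD2, SMAD6 and SMAD9 also had estimates below 0 in the first table and above 0 in the second, with overlapping libraries in at least 1 of the tables. The share of all genes that did not overlap, or that had opposite signs, is not given here, so neither sets these members apart. By adjusted p alone, 61.6% of all genes passed in the first comparison and 68.6% in the second. Whether the line differences themselves differed between the tables was not tested, since medium and table changed together.

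**Figure D4:**
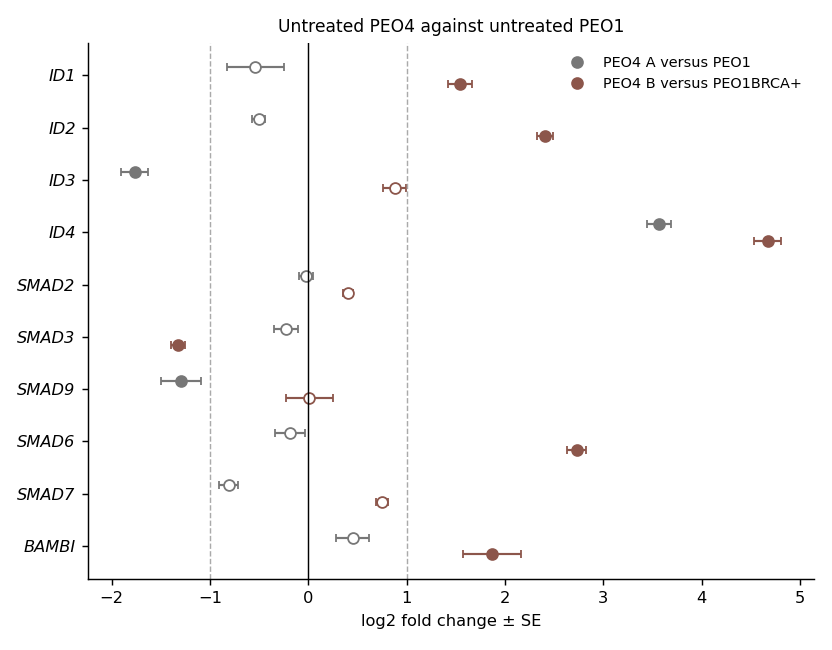
Log2 fold change (± SE) of each member in untreated PEO4 over untreated PEO1 (grey, first table) or PEO1BRCA+ (brown, second table). Filled points were called; dashed lines mark a log2 fold change of 1 in either direction. ID4 stands far to the right in both tables (3.57 and 4.67).

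After 2 h of PDS, 1 of 10 members was called in PEO1BRCA+. The background was 1.18% of genes called higher and 6.39% called lower. SMAD6 fell 2.77-fold (-1.47 ± 0.10, adjusted p = 3.67e-10 by edgeR). ID1 (-0.84 ± 0.12), ID2 (-0.43 ± 0.08), ID4 (0.52 ± 0.13), SMAD2 (0.38 ± 0.05), SMAD7 (0.29 ± 0.06) and SMAD3 (-0.18 ± 0.07) had an adjusted p under 0.05 with a smaller change.

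In PEO4 B at 2 h, 3 members were called, where 6.4% of genes were called higher and 11% lower. BAMBI fell 8.13-fold (-3.02 ± 0.31, adjusted p = 1.58e-06 by edgeR) and SMAD6 7.27-fold (-2.86 ± 0.10, adjusted p = 1.30e-15). SMAD3 rose 2.14-fold (1.10 ± 0.07, adjusted p = 2.23e-12), and its call was lost when libraries were scaled by their totals (0.97). The 4 ID genes lay between -0.87 (ID1) and -0.57 (ID3), SMAD7 was at -0.78 ± 0.06, SMAD9 at -0.87 ± 0.24 and SMAD2 at -0.21 ± 0.05. SMAD9 passed the fold threshold without the first untreated library (-1.13) or the third 2 h library (-1.07). Markers called lower in this comparison were 2 of 3 tested for fibroblasts (COL1A1 and COL3A1), 2 of 3 for endothelium (PECAM1 and VWF), 1 of 2 for leukocytes (CD79A) and 1 of 8 for carcinoma (MSLN), and none was called higher. The summed leukocyte markers, nearly all CD68, went the other way, from 34.2 to 54.9 CPM untreated to 68.1 to 78.6 CPM at 2 h. The medians over all tested markers of each list were -1.92, -1.12, -0.48 and -0.55. Their part in it was not tested.

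After 6 h, 3 members were called lower in PEO1BRCA+ and none higher. Of all genes, 1.29% were called higher and 6.83% lower. SMAD6 fell 3.33-fold (-1.74 ± 0.10, adjusted p = 4.30e-11 by edgeR), ID2 3.28-fold (-1.71 ± 0.09, adjusted p = 5.93e-13) and ID1 3.09-fold (-1.63 ± 0.13, adjusted p = 3.63e-08). SMAD2 (0.45 ± 0.05), ID3 (0.36 ± 0.12) and SMAD3 (-0.18 ± 0.07) had an adjusted p under 0.05 with a change under the fold threshold. ID4 (-0.32 ± 0.13), SMAD7 (0.11 ± 0.06) and BAMBI (-0.22 ± 0.30) passed on neither. In PEO1BRCA+, 1 of 8 carcinoma markers was called lower at both times (MUC16) and 1 of 3 tested endothelial markers at 6 h (PECAM1). The carcinoma markers summed to 9446 to 9606 CPM untreated and 11851 to 14103 CPM over both PDS times, and the fibroblast markers to 5.09 to 7.11 and 2.64 to 3.44 CPM, with none of the latter called. The leukocyte markers summed to 34.0 to 36.2 CPM untreated and 40.4 to 43.9 CPM over both PDS times. Their part in the results at 2 h and 6 h was not tested.

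In PEO4 B at 6 h, 8 of 10 members were called lower and none higher. Of all genes, 16.3% were called lower and 6.26% higher. BAMBI fell 10.2-fold (-3.35 ± 0.32, adjusted p = 5.47e-07 by edgeR; -3.70 ± 0.08 without the second untreated library) and SMAD6 7.75-fold (-2.95 ± 0.10, adjusted p = 5.75e-16). The ID genes fell 4.24-fold for ID2 (-2.09 ± 0.08), 2.84-fold for ID3 (-1.51 ± 0.12), 2.63-fold for ID4 (-1.40 ± 0.12) and 2.55-fold for ID1 (-1.35 ± 0.12). SMAD7 fell 2.41-fold (-1.27 ± 0.06). SMAD9 fell 2.05-fold (-1.04 ± 0.25, adjusted p = 0.000655), and its call was lost without the second (-0.98) or the third (-0.77) untreated library or the third 6 h library (-0.86), which left 7 members called. The 2 exceptions were SMAD3 (0.59 ± 0.07) and SMAD2 (-0.11 ± 0.05). Cell type markers moved with this comparison. Of the tested fibroblast markers 2 of 3 fell, COL1A1 (-2.99 ± 0.23) and COL3A1 (-3.60 ± 0.26), as did 2 of 3 endothelial markers (PECAM1 and VWF, list median -3.58) and 1 of 2 leukocyte markers (CD79A). The summed leukocyte markers, nearly all CD68, went the other way, from 34.2 to 54.9 CPM untreated to 68.2 to 78.1 CPM at 6 h. Of the 8 carcinoma markers, 2 fell, MUC16 (-3.40 ± 0.49) and MSLN (-2.29 ± 0.13), and 6 were not called. The median over all 8 was -0.30, and their summed level was 6281 to 8372 CPM untreated and 6834 to 6991 CPM at 6 h. Their part in the result was not tested. Median changes were -1.37 over the 10 members and -0.03 over all genes.

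**Figure D5:**
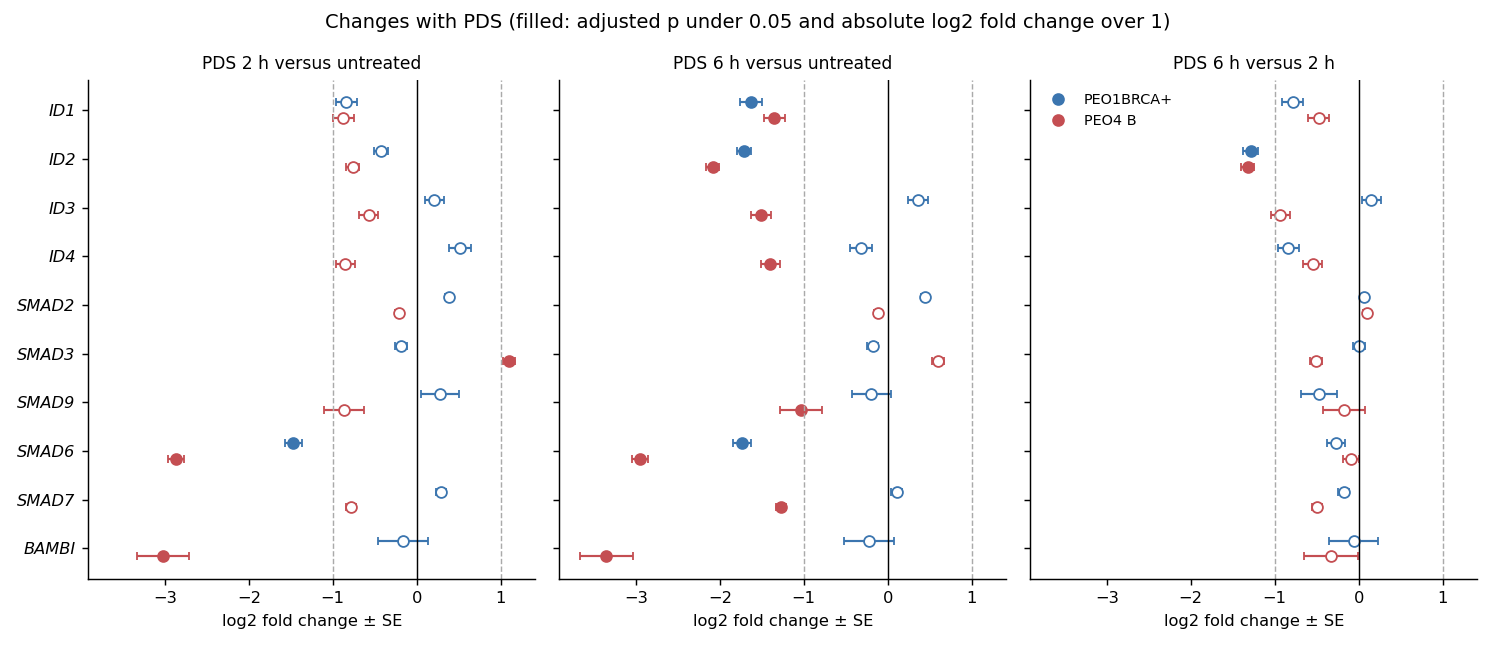
Log2 fold change (± SE) of each member after PDS in PEO1BRCA+ (blue) and PEO4 B (red), at 2 h and 6 h against untreated cells and at 6 h against 2 h. Filled points were called. SMAD6 and BAMBI in PEO4 B lie near -3 at both times, and ID2 is the filled point in the step from 2 h to 6 h.

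The libraries at 2 h and 6 h had like depths, so the step between them is free of the depth difference noted above. In that step ID2 was called in both lines, and no other member was. It fell 2.44-fold in PEO1BRCA+ (-1.29 ± 0.09, adjusted p = 2.85e-09 by edgeR), where 0.0705% of genes were called higher and 0.0999% lower, 12 and 17 genes in all. In PEO4 B it fell 2.50-fold (-1.32 ± 0.08, adjusted p = 3.87e-12), where 2.27% were called higher and 9.71% lower. Markers called lower in the PEO4 B step were 2 of 3 tested for fibroblasts (COL1A1 and PDGFRB), 1 of 3 for endothelium (VWF) and 2 of 8 for carcinoma (MUC16 and MSLN), none was called in the PEO1BRCA+ step, and their part in it was not tested. The step of ID2 did not differ detectably between the lines (-0.04 ± 0.12, adjusted p = 0.837 by edgeR).

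Other steps stayed under the fold threshold. In PEO4 B, ID3 (-0.93 ± 0.12), ID4 (-0.55 ± 0.12), SMAD3 (-0.51 ± 0.07), SMAD7 (-0.49 ± 0.06) and ID1 (-0.48 ± 0.12) had adjusted p values under 0.05. In PEO1BRCA+ this held for ID4 (-0.84 ± 0.13) and ID1 (-0.79 ± 0.13). SMAD6 (-0.27 ± 0.11 and -0.09 ± 0.09 in PEO1BRCA+ and PEO4 B) and BAMBI (-0.06 ± 0.29 and -0.33 ± 0.32) did not pass.

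The difference of the responses was tested as the interaction of line and PDS. At 2 h, 6 members were called, where 6.1% of genes were called higher and 4.92% lower in PEO4 B relative to PEO1BRCA+. The response of PEO4 B was lower for BAMBI (-2.86 ± 0.42), SMAD6 (-1.39 ± 0.14), ID4 (-1.37 ± 0.17), SMAD9 (-1.14 ± 0.33; -0.88 without the third untreated library of PEO4 B, a lost call) and SMAD7 (-1.06 ± 0.09), and higher for SMAD3 (1.29 ± 0.10, adjusted p = 3.85e-10 by edgeR). The difference for ID1 was -0.03 ± 0.17 and did not pass. Markers with a lower response in PEO4 B at 2 h were 2 of 8 for carcinoma (KRT8 and KRT18), 1 of 2 tested for leukocytes (CD79A), 1 of 3 for endothelium (VWF) and none of 3 for fibroblasts, and their part was not tested.

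At 6 h, 5 members were called, all lower in PEO4 B, where 5.42% of genes were called higher and 9.34% lower. They were BAMBI (-3.13 ± 0.43), ID3 (-1.87 ± 0.17), SMAD7 (-1.38 ± 0.09), SMAD6 (-1.22 ± 0.14) and ID4 (-1.08 ± 0.18). ID4 lost its call without the second untreated library of PEO1BRCA+ (-0.90), and SMAD9 (-0.84 ± 0.34) gained one without the first untreated library of PEO4 B (-1.11). ID1 (0.28 ± 0.17) did not pass. ID2 (-0.37 ± 0.12) had an adjusted p of 0.011 by edgeR, with a difference under the fold threshold. By adjusted p alone, 47.4% of all genes passed. The fall of both genes by 6 h was called in each line, and the difference was called for neither. At this time 1 of 3 tested fibroblast markers (COL1A1, -2.09 ± 0.34), 1 of 3 endothelial (VWF), 1 of 2 leukocyte (CD79A) and 1 of 8 carcinoma markers (MSLN) also had a lower response in PEO4 B, and their part was not tested.

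Between 2 h and 6 h the change itself differed for ID3 (-1.08 ± 0.16, adjusted p = 7.06e-05 by edgeR), where 1.87% of genes were called higher and 7.01% lower. Without the second 2 h library of PEO4 B the value was -0.98, and no member was called. The markers COL1A1, VWF, MUC16 and MSLN were also called lower in this difference (1 of 3 fibroblast, 1 of 3 endothelial and 2 of 8 carcinoma markers tested), and their part was not tested.

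The rest of the pathway was read from 7 gene lists, whose counts at 6 h in PEO4 B stand against 6.26% of all genes called higher and 16.3% called lower. None of SMAD1, SMAD4 and SMAD5 was called in any comparison, nor were the tested type II receptors after PDS (4 of 5 listed). At 6 h in PEO4 B, 1 of 6 tested type I receptors rose, the BMP receptor BMPR1B (1.28 ± 0.44), on 1 to 17 counts per library. Of 4 tested co-receptors, 2 fell there: RGMA, a BMP co-receptor (-2.01 ± 0.13), and TGFBR3, also called betaglycan (-1.75 ± 0.24). RGMA was 10.1, 8.89 and 11.7 CPM untreated and 2.50, 2.78 and 2.36 CPM at 6 h, without overlap. TGFBR3 was 23.0, 11.6 and 29.1 CPM untreated and 5.75, 7.17 and 6.17 CPM at 6 h. The second untreated library stood lowest for TGFBR3, and without it, a fit chosen after the values were seen, the change was -2.03 ± 0.12. Neither was called in PEO1BRCA+ after PDS.

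Of 15 tested SMAD regulators, 4 rose and none fell in PEO4 B at 6 h. The 2 that rose most were PMEPA1, an inhibitor of SMAD2 and SMAD3 that TGF-beta induces (1.98 ± 0.09), and NEDD4L, a ubiquitin ligase that acts on activated SMAD2 and SMAD3 (1.78 ± 0.10). PMEPA1 was 124, 146 and 98.7 CPM untreated and 479, 477 and 494 CPM at 6 h. At 2 h in PEO4 B these 2 genes were also the 2 of the list that rose (1.95 ± 0.09 and 1.12 ± 0.10), and 1 fell, the SMAD corepressor gene TGIF1 (-1.39 ± 0.08), against 6.4% of all genes higher and 11% lower. In the step from 2 h to 6 h, 1 of the 15 fell, the related TGIF2 (-1.08 ± 0.11), against 9.71% of all genes. None of the 15 was called in PEO1BRCA+ at either time, and the responses differed at 6 h for PMEPA1 (1.42 ± 0.12) and NEDD4L (1.30 ± 0.14). Median changes of the list were 0.30 in PEO4 B and 0.14 in PEO1BRCA+, against -0.03 over all genes in each.

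The 6 tested other SMAD targets went both ways in PEO4 B at 6 h, where 2 fell, 1 rose and 3 were not called (median -0.18, against -0.03 over all genes). The BMP target ATOH8 fell from 25.9, 21.7 and 33.2 CPM to 0.644, 0.641 and 0.748 CPM (-5.31 ± 0.19), and MSX2, a BMP-induced homeobox gene, from 86.5, 55.8 and 117 CPM to 5.06, 4.76 and 3.20 CPM (-4.31 ± 0.26). The second untreated library was again the lowest for both, and without it the changes were -5.43 ± 0.18 and -4.53 ± 0.16. In PEO1BRCA+ at 6 h ATOH8 also fell (-3.69 ± 0.29), 2 of the 6 rose and 3 were not called (median 0.11), where 1.29% of all genes were called higher and 6.83% lower. The bHLH partners TCF3, TCF4 and TCF12 were not called with PDS in either line.

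Over the 18 libraries of the second table, the levels most like that of ID1 among 10233 other genes (Pearson r of log2 CPM, a description across libraries that share lines and treatments) were those of PNKD (0.97), SP8 (0.96) and CLSTN3 (0.96). For ID2 they were ZNF362 (0.98), SH3PXD2A (0.98) and CLSTN3 (0.98), so CLSTN3 was near both genes. For ID3 they were BTBD2 (0.95), TIMP1 (0.94) and AGAP11 (0.93).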

How the data were processed

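RNA was sequenced from 24 libraries. The labels and methods name fastp, FastQC, STAR, hg38 and featureCounts, with the annotation and strand setting not given in the sources used here. The files deposited hold raw, unscaled counts of reads per gene, in 2 tables (6 and 18 libraries), and 2 lines and 1 line without readable counts were left out. In R 4.3.3, edgeR 4.0.16 was run on each table: filterByExpr (minimum count 10, minimum total 15), TMM, and a robust quasi-likelihood fit with a mean per condition over all libraries (4 and 12 residual degrees of freedom). p-values were adjusted over all genes tested. Log2 CPM used a prior count of 2. The script was tested on simulated data. Replicates differed by more than sampling noise. Gene positions and promoters came from RefSeq (GRCh38.p14) and transcript lengths from GENCODE release 44; all 10 genes matched. The genes named were all 10 members, the 2 called genes of each pathway list that changed most in PEO4 B at 6 h, and the 3 genes most like ID1, ID2 and ID3; markers, TGIF1 and TGIF2 were named after their values were seen. The result of 1 listed gene is not reported here. Members and lists were chosen with earlier results of these data known. Alternatives were other scalings, filters and thresholds, DESeq2 1.42.0, a replicate term, fits of the compared groups alone, and each library left out.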

Additional observations from a re-analysis of the deposited data

Results flagged for a closer look

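The response to PDS differed between PEO4 B and PEO1BRCA+ for several members, by a test of the difference itself (edgeR's quasi-likelihood test of the interaction, Benjamini-Hochberg adjusted). Values are log2 differences, PEO4 B minus PEO1BRCA+. At 2 h they were -2.86 for BAMBI, -1.39 for SMAD6, -1.37 for ID4, -1.14 for SMAD9, -1.06 for SMAD7 and 1.29 for SMAD3. At 6 h they were -3.13 for BAMBI, -1.87 for ID3, -1.38 for SMAD7, -1.22 for SMAD6 and -1.08 for ID4. In the step from 2 h to 6 h the difference was -1.08 for ID3. With 3 libraries per condition, single libraries were not tested as outliers.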

How the results depend on the processing

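The number of members called moved by at most 1.5 times under library totals, DESeq2's size factors, upper-quartile scaling, DESeq2's Wald test, other filters and fits of only the compared groups. By adjusted p alone, with no fold threshold, more members passed in all 11 comparisons: 6 for PEO4 A against PEO1, 7 and 6 for PEO1BRCA+ at 2 h and 6 h, 3 for its step from 2 h to 6 h, 10 for PEO4 B at 2 h and 6 for its step, 9 for the difference of responses at 6 h and 3 for the difference of steps. Smaller rises were to 9 for the untreated lines of the second table, 10 for PEO4 B at 6 h and 9 for the difference of responses at 2 h (68.6%, 69.8% and 37.3% of all genes tested). Of all genes tested, 61.6%, 52.6%, 53%, 6.94%, 65.3%, 60.1%, 47.4% and 43.3% passed in the other 8, in the order given first, so that the first 3 counts, that of the PEO4 B step and that of the difference of steps lie near the background. Leaving out 1 library at a time gave 0 to 1 members for the difference of steps. Replicate numbers did not pair the libraries (correlations of same-numbered deviations from -0.12 to 0.10), and with a replicate block the counts stayed at 3 (first table), 6 (untreated second table), 1, 3 and 1 (PEO1BRCA+), 3, 8 and 1 (PEO4 B), and 6, 5 and 1 (differences).

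Signs turned only in values that were not called. SMAD2 between the lines of the first table was 0.034 with upper-quartile scaling. SMAD7 in PEO1BRCA+ at 6 h was -0.041 with library totals. The difference of steps of SMAD2 was -0.00045 with library totals and -0.0097 with upper-quartile scaling. The step of SMAD3 in PEO1BRCA+ was -0.0059 with DESeq2's size factors and with its Wald test, -0.0046 with upper-quartile scaling, -0.0097 with the stricter filter and -0.00094 with only the groups compared. With 1 library left out, it ranged from -0.036 to 0.043, ID1 in the difference of responses at 2 h from -0.16 to 0.054, SMAD9 between the untreated lines of the second table from -0.25 to 0.28, ID2 in the difference of steps from -0.10 to 0.053, and SMAD9 in the PEO4 B step from -0.31 to 0.042. The cause was not tested. Library totals moved the median of all genes after PDS by -0.15 at both times in PEO1BRCA+ and by -0.13 and -0.16 at 2 h and 6 h in PEO4 B, so small changes depend on the scaling. The background counts moved too. Among all 17020 genes, library totals gave 120 called higher and 1491 lower in PEO1BRCA+ at 2 h, against 201 and 1087. In PEO4 B at 6 h they gave 698 and 3334, against 1066 and 2782. SMAD9 rested on 29 to 123 counts per library in the second table, the fewest of the members.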
